A study of Mus musculus with 12 samples.

Results

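The 7 islet peptide hormone genes other than insulin, namely Iapp, Ucn3, Vip, Cck, Gast, Pdyn and Npy, were followed in pancreatic islets that had lost Rnf20 and in control islets. All 7 were found by gene name in both expression tables, among 24631 genes in the female table and 24474 in the male table. The genes were chosen by their knockout against control values in these same libraries, so those values are given below as a description, with no test within a sex.

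The 12 libraries were bulk RNA sequencing of whole mouse islets picked by hand, with 3 libraries for each genotype in each sex. Knockout mice carried the floxed Rnf20 alleles (Rnf20 F/F) with Pdx1 Cre ER, a tamoxifen-activated recombinase driven by the Pdx1 promoter and so mainly active in beta cells, and controls were labelled Rnf20 flox with no Cre named. All 4 groups were dosed with tamoxifen at the age of 4 weeks (5 gavages of 150 µg per g of body weight), and the age at islet collection was not given in the labels. An effect of the Cre transgene therefore cannot be told apart from that of the deletion, and non-beta cells of the islet are present in each library. Libraries were not said to come from separate animals, so the p-values below measure only the spread between libraries, which may be technical. They held 19759712 to 56086810 reads assigned to genes, and male control 2 was the shallowest and had reads in 17701 genes, against 22287 to 24269 in the others. Acinar markers took 1.76 to 4.38% of reads in female controls, 1.34 to 1.86% in female knockouts and 0.399 to 5.88% over male libraries. In male knockouts 6 of 8 endothelial markers rose, against 6.08% of all tested genes (limma adjusted p below 0.05). Rnf20, which encodes a ubiquitin ligase for histone H2B, fell with log2 fold changes of -1.04 in females (limma adjusted p = 6.35e-04) and -1.38 in males (limma adjusted p = 7.91e-04), and the groups did not overlap in either sex.

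Islets secrete several peptides besides insulin and glucagon. Iapp encodes amylin, which beta cells store and release with insulin and which acts on the calcitonin receptor paired with a RAMP protein. Ucn3 encodes urocortin 3, a marker of mature beta cells in the mouse that acts on delta cells through the receptor Crhr2. Vip and Npy encode neuropeptides that are well known from the autonomic nerves supplying the pancreas, Cck and Gast encode the gut hormones cholecystokinin and gastrin, and Pdyn encodes prodynorphin, the precursor of the dynorphin opioid peptides. All are made as precursors that convertases cut and other enzymes trim or amidate.

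In GRCm39, Iapp (ENSMUSG00000041681) lies on chromosome 6 from 142244149 to 142249687 on the plus strand and Ucn3 (ENSMUSG00000044988) on chromosome 13 from 3990688 to 3995349 on the minus strand. Vip (ENSMUSG00000019772) lies on chromosome 10 from 5589218 to 5597617 on the plus strand, and Npy (ENSMUSG00000029819) on chromosome 6 from 49799690 to 49806487 on the plus strand. Cck (ENSMUSG00000032532) lies on chromosome 9 from 121318890 to 121324760 on the minus strand, Gast (ENSMUSG00000017165) on chromosome 11 from 100225233 to 100227822 on the plus strand, and Pdyn (ENSMUSG00000027400) on chromosome 2 from 129528485 to 129541764 on the minus strand. All 7 are annotated as protein coding.

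The promoters of 4 of the genes are shown as examples of the beta cell (Iapp, Ucn3), neuronal (Vip) and gut (Cck) peptides, the groups by which the values below are ordered. Each is the 250 bases before the RefSeq start in GRCm38.p6, a different build from that of the counts, written 5′ to 3′ on the gene's strand. Capitals mark TAAT or its reverse complement ATTA, the core bound by many homeodomain factors, and TGACG or its reverse complement CGTCA, the core of the cyclic AMP response element. The windows are chr6:142298175-142298424 (plus strand) for Iapp, chr13:3945350-3945599 (minus) for Ucn3, chr10:5638968-5639217 (plus) for Vip and chr9:121495695-121495944 (minus) for Cck.
Iapp: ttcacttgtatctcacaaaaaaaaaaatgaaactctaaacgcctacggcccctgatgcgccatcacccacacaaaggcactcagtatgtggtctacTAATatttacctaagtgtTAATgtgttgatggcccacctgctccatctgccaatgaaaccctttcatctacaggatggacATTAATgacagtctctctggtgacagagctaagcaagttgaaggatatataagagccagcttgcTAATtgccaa
Ucn3: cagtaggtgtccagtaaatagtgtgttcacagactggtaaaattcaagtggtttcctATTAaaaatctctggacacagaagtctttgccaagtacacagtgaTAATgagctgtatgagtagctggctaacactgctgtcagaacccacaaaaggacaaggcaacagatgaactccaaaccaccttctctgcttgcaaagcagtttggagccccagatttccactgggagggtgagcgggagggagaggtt
Vip: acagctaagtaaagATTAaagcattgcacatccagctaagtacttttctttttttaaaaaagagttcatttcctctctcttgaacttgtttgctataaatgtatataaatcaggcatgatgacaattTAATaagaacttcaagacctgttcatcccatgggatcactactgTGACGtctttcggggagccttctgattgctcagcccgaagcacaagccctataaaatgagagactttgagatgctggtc
Cck: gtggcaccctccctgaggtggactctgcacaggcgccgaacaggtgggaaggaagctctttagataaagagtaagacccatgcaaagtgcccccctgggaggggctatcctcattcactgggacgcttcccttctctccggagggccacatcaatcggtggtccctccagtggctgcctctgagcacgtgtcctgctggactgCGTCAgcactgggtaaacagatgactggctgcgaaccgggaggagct

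The Iapp window held 5 matches to the TAAT core, the nearest beginning at position -10 from the start, and the matches beginning at -74 and -72 overlap. The Ucn3 and Vip windows held 2 each and the Cck window none. Of 32851 promoter windows of this length, 54.9% held at least 1 TAAT match on either strand and 5.54% held 5 or more. TGACG or its complement was found in the Vip window at -79 and in the Cck window at -47, and in 17.8% of all windows. The Vip window also held TATAAA at -157, -147 and -30. TATAAA or its reverse complement TTTATA was found in 12.4% of windows. A match describes the letters only, and no binding was measured here.

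Across the 7 genes, knockout and control libraries did not overlap for 6 in each sex. In females 4 were lower in every knockout library (Iapp, Ucn3, Vip and Npy), 2 were higher (Cck and Gast) and Pdyn overlapped. In males 5 were lower (Iapp, Ucn3, Vip, Npy and Pdyn), Cck was higher and Gast overlapped. Over all tested genes the groups did not overlap for 39.3% of 18142 in females (19% above and 20.3% below) and for 35.5% of 18010 in males (18.6% above and 16.9% below). Since these values chose the genes, nothing is read from the counts.

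**Figure D1:**
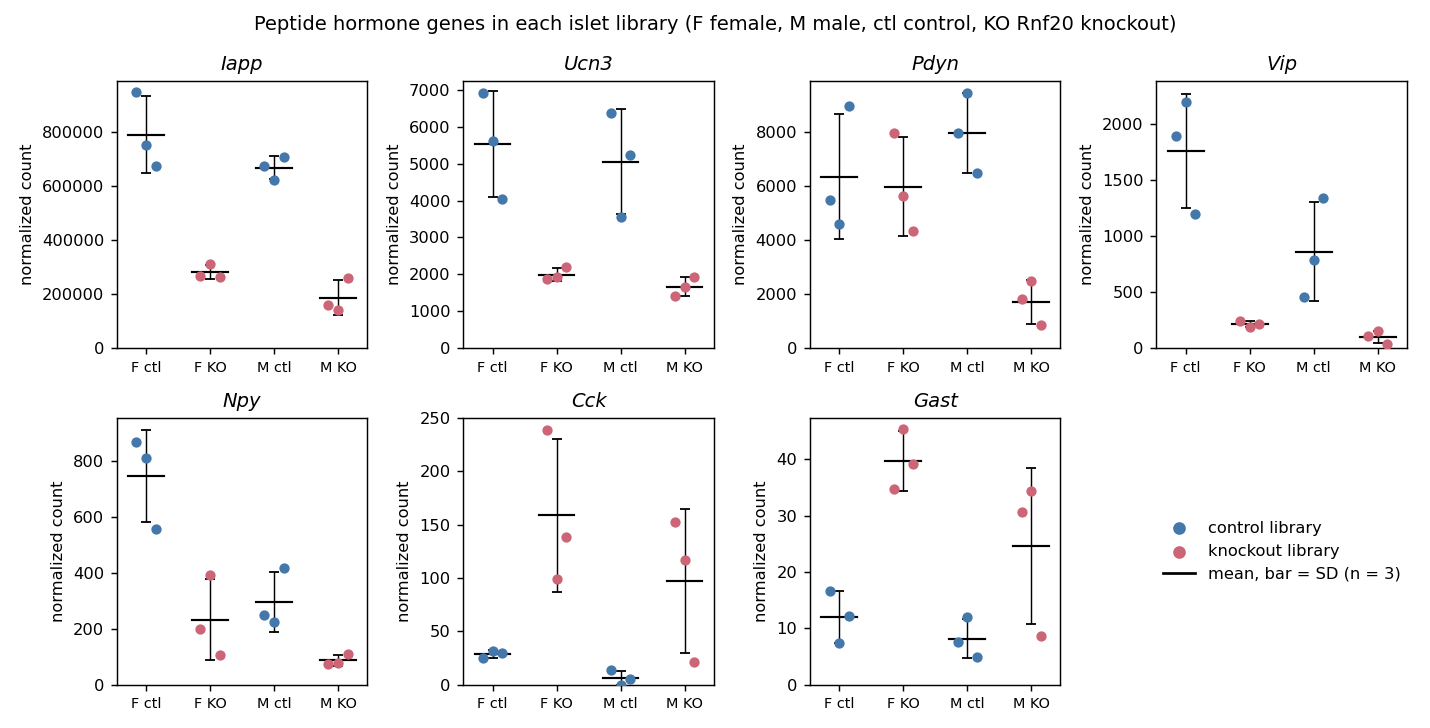
Normalized read count (vertical axes, linear from 0, a separate scale per gene) of the 7 peptide hormone genes in each of the 12 islet libraries, with the group mean as a line and the SD as a bar (n = 3). Knockout points lie apart from control points in 6 panels per sex, and overlap them for Pdyn in females and for Gast in males.

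Iapp was the most abundant of the 7 genes in every group. Its normalized counts (reads over each library's size factor) were 948320, 751560 and 674358 in female controls 1, 2 and 3, and 268634, 312192 and 265333 in the female knockouts. The highest knockout lay below the lowest control by more than the whole range of the knockouts. In males the controls had 675463, 623185 and 706353 and the knockouts 158563, 142145 and 261273, again without overlap. The log2 fold change on log2 of the normalized count plus 1 was -1.48 (SE 0.15, n = 3 against 3) in females and -1.89 (SE 0.23, n = 3 against 3) in males. The share of assigned reads taken by Iapp alone averaged 1.94% in the controls and 0.801% in the knockouts of females, and 1.67% and 0.515% in those of males. In bulk islet RNA, fewer cells of a type and less RNA per cell cannot be told apart, here and for each gene below.

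Ucn3 was lower in the knockouts of both sexes, at a much lower level than Iapp. Female controls had 6919, 5617 and 4051 normalized counts and female knockouts 1868, 1919 and 2196. Male controls had 6383, 3557 and 5237 and male knockouts 1413, 1652 and 1922. All 6 knockout libraries lay below all 6 control libraries of their own sex, and male control 2 was the lowest male control. The log2 fold changes were -1.44 (SE 0.19) and -1.58 (SE 0.21). Beside them, the summed share of reads from 8 beta cell markers ranged in females from 11.4 to 16.2% (controls) and 10.6 to 10.9% (knockouts), and in males from 14.7 to 19.5% and 10.1 to 15.2%. Ins1 and Ins2 carried 97.2 to 99.1% of those reads. By gene, 6 of the 8 markers fell and 1 rose in females (median log2 fold change -1.14), and 4 fell and 1 rose in males (median -1.34). Over all tested genes 10.7% fell and 9.9% rose in females, and 7.09% and 6.08% in males (limma adjusted p below 0.05). The part of beta cell content in the Iapp and Ucn3 values was not tested.

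Pdyn was lower in the male knockouts, while its female groups overlapped. Female controls had 5459, 4602 and 8952 normalized counts and female knockouts 7940, 5614 and 4336, so the 2 groups overlapped over most of their range. Male controls had 7964, 9442 and 6477 and male knockouts 1813, 2467 and 836. Every male knockout library lay below every male control. The log2 fold change was -0.07 (SE 0.31) in females and -2.34 (SE 0.37) in males. With the libraries of both sexes scaled together, the female minus male difference of the knockout effect was 2.30 on the log2 scale (SE 0.52). This difference was not called for Pdyn (limma adjusted p = 0.169). For the other 6 genes it lay between -1.72 (Cck) and 0.44 (Iapp), and none was called.

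**Figure D2:**
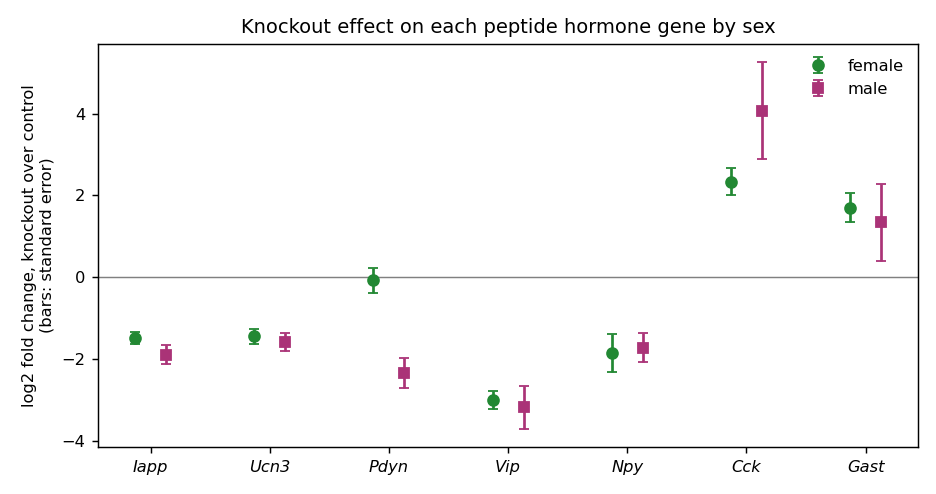
Log2 fold change of each peptide hormone gene, knockout over control (vertical axis, log2 scale), in females (circles) and males (squares), with standard errors from the limma fit as bars. The female Pdyn point is at -0.07, a direction that turned without female control 3 or female knockout 3, and the male one at -2.34. The sex difference of Pdyn was not called (limma adjusted p = 0.169). The other 6 genes lie on the same side of 0 in both sexes.

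Vip had the lowest knockout level relative to control of the 7 genes in both sexes. Female controls had 1896, 2192 and 1201 normalized counts and female knockouts 246, 186 and 211. Male controls ranged more widely, at 458, 786 and 1338, and male knockouts had 107, 149 and 40.2. The groups did not overlap in either sex, and the log2 fold changes were -3.00 (SE 0.23) and -3.17 (SE 0.52). Npy, a neuropeptide of sympathetic nerves that beta cells can also make, was also lower in the knockouts. Female controls had 871, 814 and 559 and female knockouts 200, 393 and 108, while male controls had 249, 224 and 419 and male knockouts 73.1, 78.8 and 111. The groups were again apart within each sex, with log2 fold changes of -1.84 (SE 0.46) and -1.72 (SE 0.35).

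Markers of autonomic neurons are given beside Vip and Npy. Of 10 such markers 8 were tested, and in females 5 fell and none rose (limma; 0 higher also at an unadjusted p below 0.05 and with edgeR and DESeq2), with a median log2 fold change of -1.80 against -0.01 over all tested genes, of which 20.6% were called (9.9% higher and 10.7% lower, limma adjusted p below 0.05). Among them were Phox2a at -2.76 (limma adjusted p = 0.00230), Chrna3 at -2.26 (limma adjusted p = 8.71e-04), Slc18a3 at -2.11 (limma adjusted p = 0.00178) and Prph at -2.17 (limma adjusted p = 0.00310). Phox2a is a transcription factor of autonomic neurons, Chrna3 is a ganglionic nicotinic receptor subunit, Slc18a3 is the vesicular acetylcholine transporter and Prph is the neuronal intermediate filament peripherin.

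In males 2 of the 8 fell and none rose, with a median of -1.32 against 0.06 over all tested genes, of which 13.2% were called (6.08% higher and 7.09% lower). Phox2a had 56.5, 174 and 92.6 normalized counts in the 3 male controls, against 11.9, 19.9 and 4.37 in the knockouts (log2 fold change -3.11, limma adjusted p = 0.0238), and Prph had 518, 553 and 783 and then 120, 257 and 63.8 (-2.27, limma adjusted p = 0.0133). No marker rose at an unadjusted p below 0.05, with edgeR or with DESeq2. The male count was 0 without male knockout 1, 1 without male control 3 or male knockout 3, and 4 without male knockout 2. The summed share of reads from the 10 markers ranged in females from 0.00637 to 0.00851% (controls) and 0.00277 to 0.00343% (knockouts), and in males from 0.00393 to 0.00534% and 0.00259 to 0.00347%. Female control 3 was the lowest female control for Vip, Npy, Phox2a, Prph and Slc18a3. Th, the rate-limiting enzyme of catecholamine synthesis, was not called in either sex, at -0.61 in females (limma adjusted p = 0.0958) and -0.02 in males (limma adjusted p = 0.969), where the direction turned without male control 1 (0.29) and without male knockout 1 (0.02). Female Th was called lower without female knockout 3 (limma adjusted p = 0.0450), with DESeq2 (adjusted p = 0.0495) and with the replicate number as a block (limma adjusted p = 0.0201). In male knockouts Th carried the most reads of the 10 markers (707, 819 and 883), ahead of Prph (121, 284 and 73). Ecel1, a neuronal endopeptidase, was above 0 in both sexes without being called, at 0.78 in females (limma adjusted p = 0.219) and 0.84 in males (limma adjusted p = 0.682).

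Schwann cell markers, which label the glia along these nerves, overlapped between genotypes in their summed share of reads in both sexes. They made up 0.0125 to 0.0160% (controls) and 0.0149 to 0.0157% (knockouts) of female reads, and 0.0135 to 0.0144% and 0.0122 to 0.0141% of male reads. The part of nerve content in the Vip and Npy values was not tested.

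**Figure D3:**
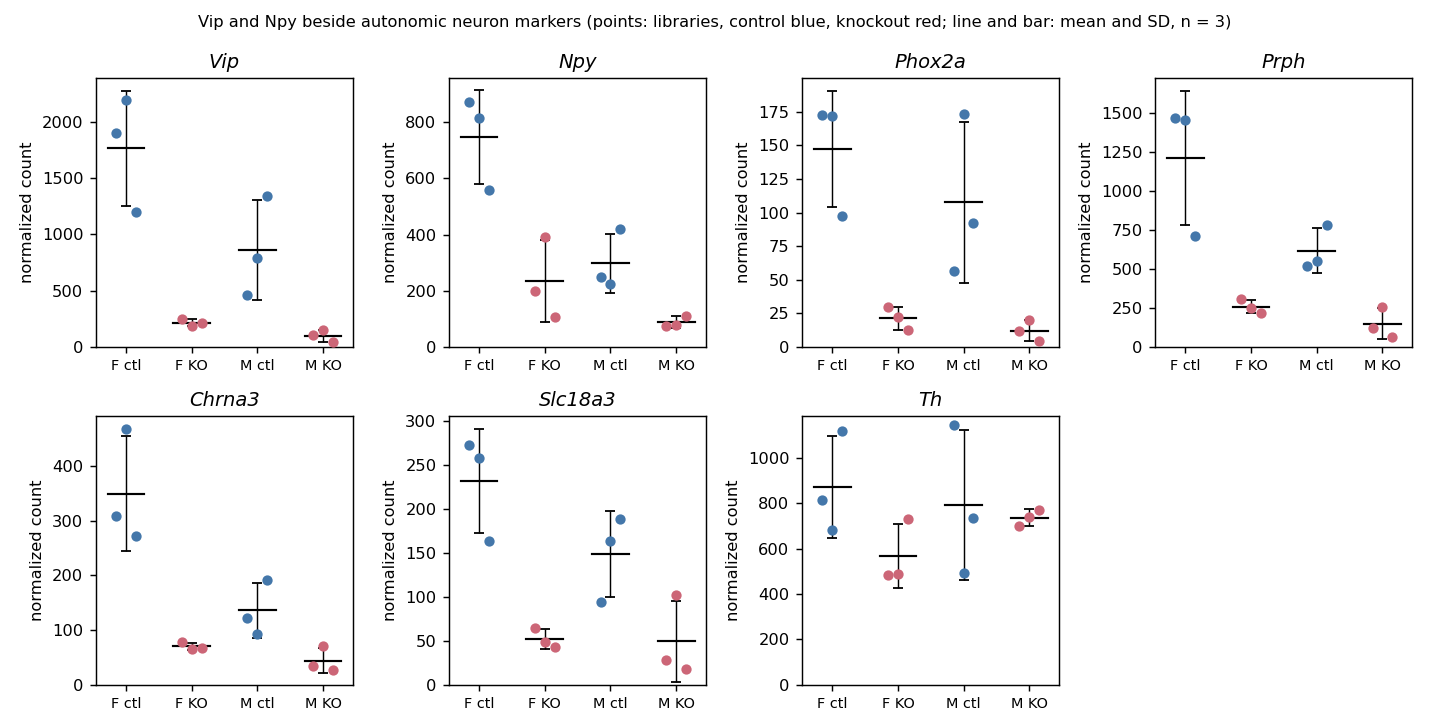
Normalized read count (vertical axes, linear from 0, a separate scale per gene) of Vip, Npy and 5 autonomic neuron markers in each library, with group means and SD bars (n = 3). In females the knockout points lie below the control points in all panels but Th.

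Cck and Gast were the genes of the 7 with higher knockout values, both at low read counts. Cck had 24, 30 and 27 reads in female controls and 274, 90 and 166 in female knockouts, or 24.9, 31.6 and 30.2 normalized counts against 238, 99.6 and 138. In males it had 16, 0 and 7 reads in controls and 154, 129 and 25 in knockouts, or 13.5, 0 and 5.02 against 152, 117 and 21.8. No knockout library overlapped the controls of its sex, and male knockout 3 lay closest to them. The log2 fold change was 2.33 (SE 0.33) in females and 4.07 (SE 1.18) in males. The male value was 2.99 without male control 2, the library with 0 reads, and 4.92 without male control 1 or without male knockout 3.

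Gast had 16, 7 and 11 reads in female controls and 40, 41 and 47 in female knockouts, or 16.6, 7.37 and 12.3 normalized counts against 34.8, 45.4 and 39.2. Male controls had 9, 6 and 7 reads and male knockouts 31, 38 and 10, or 7.59, 11.97 and 5.02 normalized counts against 30.6, 34.4 and 8.74. The female groups were apart, while male knockout 3 fell within the range of the male controls. The log2 fold changes were 1.70 (SE 0.36) in females and 1.34 (SE 0.94) in males. The male value was 1.94 without male knockout 3, and the female value was 2.45 with the acinar marker level as a covariate.

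Of 10 markers of gut endocrine cells and gut epithelium, 4 were tested, of which 2 rose and 1 fell in each sex. Over all tested genes 9.9% rose and 10.7% fell in females, and 6.08% and 7.09% in males. Tff3, a secreted trefoil peptide of goblet cells, had 6.21, 4.21 and 2.24 normalized counts in female controls and 134, 128 and 84.2 in female knockouts (log2 fold change 4.53, limma adjusted p = 4.36e-04). In males it had 5.90, 0 and 0.718 in controls and 137, 76.1 and 97.9 in knockouts (5.48, limma adjusted p = 0.00750), a call lost without male knockout 1 (adjusted p 0.0834). Cdhr2, a brush border cadherin, rose by 1.22 in females (limma adjusted p = 0.00287) and 1.44 in males (limma adjusted p = 0.0426) on the log2 scale, the latter lost without any 1 of the 3 male knockouts. Vil1, the brush border protein villin, fell by 1.64 (limma adjusted p = 3.08e-04) and 1.40 (limma adjusted p = 0.00596). The gut transcription factor Cdx1 and the intestinal phosphatase Alpi were absent from the genes deposited for either sex. Only genes with at least 10 reads in total were deposited, so their reads are not known to be 0. Cdx2 had at most 11 reads in a library. The summed share of reads from the 10 markers ranged in females from 0.0126 to 0.0150% (controls) and 0.00623 to 0.00736% (knockouts), and in males from 0.0121 to 0.0145% and 0.00504 to 0.00891%. Vil1 carried 69.8 to 97.4% of those reads. It was not tested what part gut cells have in the Cck and Gast values.

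Levels were then ordered within each group as normalized count per kilobase of exon. In female controls the order was Iapp (812538 ± 145033 per kb, SD, n = 3), Ucn3 (3741 ± 972), Pdyn (2195 ± 798), Npy (1321 ± 293), Vip (518 ± 150), Gast (26.3 ± 10.01) and Cck (22.1 ± 2.72). The libraries of Ucn3 and Pdyn overlapped, as did those of Gast and Cck, and the other neighbours were apart. In female knockouts Pdyn (2066 ± 633) stood above Ucn3 (1349 ± 119), and Vip (63.0 ± 8.91) came last, below Cck (122 ± 54.9) and Gast (86.5 ± 11.5), which overlapped each other. Male controls had the same order as female controls, with Cck (4.73 ± 5.22) apart from Gast (17.8 ± 7.64). In male knockouts Ucn3 (1125 ± 172) stayed above Pdyn (591 ± 284), and Cck (74.3 ± 51.7), Gast (53.5 ± 30.2) and Vip (29.0 ± 16.1) came last and overlapped in turn, while Npy lay apart above them. Iapp was first and Npy the fourth in all 4 groups.

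Control islets of the 2 sexes gave a comparison that the choice of genes did not use. After scaling the reads of both sexes together, none of the 7 genes was called by limma between female and male controls, against 0.00559% (1 gene) of 17903 tested. Of the 7, 3 had an unadjusted p below 0.05 and edgeR called 0. Npy had 838, 793 and 538 jointly scaled counts in female controls and 254, 229 and 428 in male controls, without overlap, a log2 difference of 1.28 (SE 0.28, limma adjusted p = 0.207). Vip had 1823, 2136 and 1157 against 469, 805 and 1367, which overlap, with a difference of 1.04 (SE 0.38, limma adjusted p = 0.319). Cck was at a mean of 27.9 against 6.31, a difference of 2.68 (SE 1.14, limma adjusted p = 0.384) that was 1.59 without male control 2 and 3.54 without male control 1. The other 4 lay between -0.45 (Pdyn) and 0.44 (Gast).

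Among 16 genes for the receptors of these peptides and their partners, 11 could be tested in females, where 2 rose and 1 fell, and 10 in males, where 1 fell. The medians of their log2 fold changes were -0.64 in females and -0.14 in males, beside -0.01 and 0.06 over all tested genes. The 3 of 11 called in females and 1 of 10 in males stand beside the 20.6% and 13.2% called over all genes. In males none was called higher by limma, 2 had an unadjusted p below 0.05 in that direction, and edgeR and DESeq2 each called 1. Crhr2, the receptor for urocortin 3 and a marker of delta cells, had 47.6, 54.7 and 53.7 normalized counts in female controls and 344, 404 and 348 in female knockouts. Its log2 fold change was 2.79 (SE 0.17, limma adjusted p = 1.96e-04), opposite in sign to that of Ucn3. Male controls had 61.5, 0 and 23.0 and male knockouts 504, 252 and 266, so the groups were apart, with a log2 fold change of 4.82 (SE 1.36, limma adjusted p = 0.0548). The male rise was called without male control 2 (3.07, limma adjusted p = 0.00889), without male control 1 (6.05, limma adjusted p = 0.0180), with edgeR (adjusted p = 0.0335) and with DESeq2 (adjusted p = 0.0396).

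Vipr2, a receptor for the Vip peptide, had 43.5, 49.5 and 62.6 normalized counts in female controls and 154, 176 and 198 in female knockouts, a rise of 1.75 (SE 0.22, limma adjusted p = 0.00178) on the log2 scale. In males its controls had 78.4, 9.98 and 71.0 and its knockouts 130, 87.0 and 215, and the log2 fold change of 1.77 (SE 0.76) was not called (limma adjusted p = 0.165) and was 0.84 without male control 2 and 2.27 without male control 1. Vipr1, the other Vip receptor gene listed, was far more abundant, at a mean of 4308 normalized counts in female controls. It was not called in females, at -0.08 (limma adjusted p = 0.571). Ramp3, a partner of the calcitonin receptor in amylin receptors, fell by 0.64 in females (limma adjusted p = 0.0399) and 1.07 in males (limma adjusted p = 0.0214). Those calls were lost without female control 1 or 2 or female knockout 2 or 3 (adjusted p 0.0973 to 0.109) and without male control 1 or 3 or male knockout 1 (adjusted p 0.0560 to 0.0834). Calcr, the calcitonin receptor itself, was too low to test, at 0 to 7.59 normalized counts in all libraries.

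Of 11 genes for peptide processing, 2 fell in females and 4 in males, with medians of -0.14 and -0.25. Over all genes 10.7% fell in females and 7.09% in males. None was called higher by limma in either sex, 1 in each sex had an unadjusted p below 0.05 in that direction, and DESeq2 called 1 in females and 0 in males while edgeR called 0 in both. Pcsk1, a convertase that cuts prohormones, had 46238, 53670 and 54200 normalized counts in female controls and 17858, 19932 and 21357 in female knockouts, and it fell by 1.38 (SE 0.11, limma adjusted p = 3.95e-04). In males it had 29091, 52376 and 37729 and then 14986, 15261 and 17305, a fall by 1.29 (SE 0.20, limma adjusted p = 0.00443). Pam, the enzyme that amidates the ends of peptides such as amylin, cholecystokinin and gastrin, fell by 0.89 (SE 0.10, limma adjusted p = 0.00123) and 1.01 (SE 0.18, limma adjusted p = 0.00809). Neither call was lost in any alternative run. The other convertase Pcsk2 had log2 fold changes of 0.05 (limma adjusted p = 0.799) and 0.14 (limma adjusted p = 0.591), and the carboxypeptidase Cpe -0.21 (limma adjusted p = 0.176) and -0.25 (limma adjusted p = 0.291).

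In males Scg5, the chaperone of Pcsk2, fell by 0.52 (limma adjusted p = 0.0271) and Pcsk1n, an inhibitor of Pcsk1, by 0.82 (limma adjusted p = 0.0290). The Scg5 call was lost without male control 3 or male knockout 1 or 2 (adjusted p 0.0560 to 0.141), and the Pcsk1n call without male control 1 or 3 or male knockout 1 or 3 (adjusted p 0.0659 to 0.127). In females Scg5 was at -0.31 (limma adjusted p = 0.0746) while it was called lower without female control 3 (-0.37, limma adjusted p = 0.0480) and with DESeq2 (-0.30, adjusted p = 0.0338), and Pcsk1n was at -0.26 (limma adjusted p = 0.248). The sex difference of the knockout effect, tested by a sex-by-genotype term fitted to the 12 libraries, was not called for either, against 0.132% of 18117 genes called, at 0.24 for Scg5 (limma adjusted p = 0.739) and 0.58 for Pcsk1n (limma adjusted p = 0.641).

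**Figure D4:**
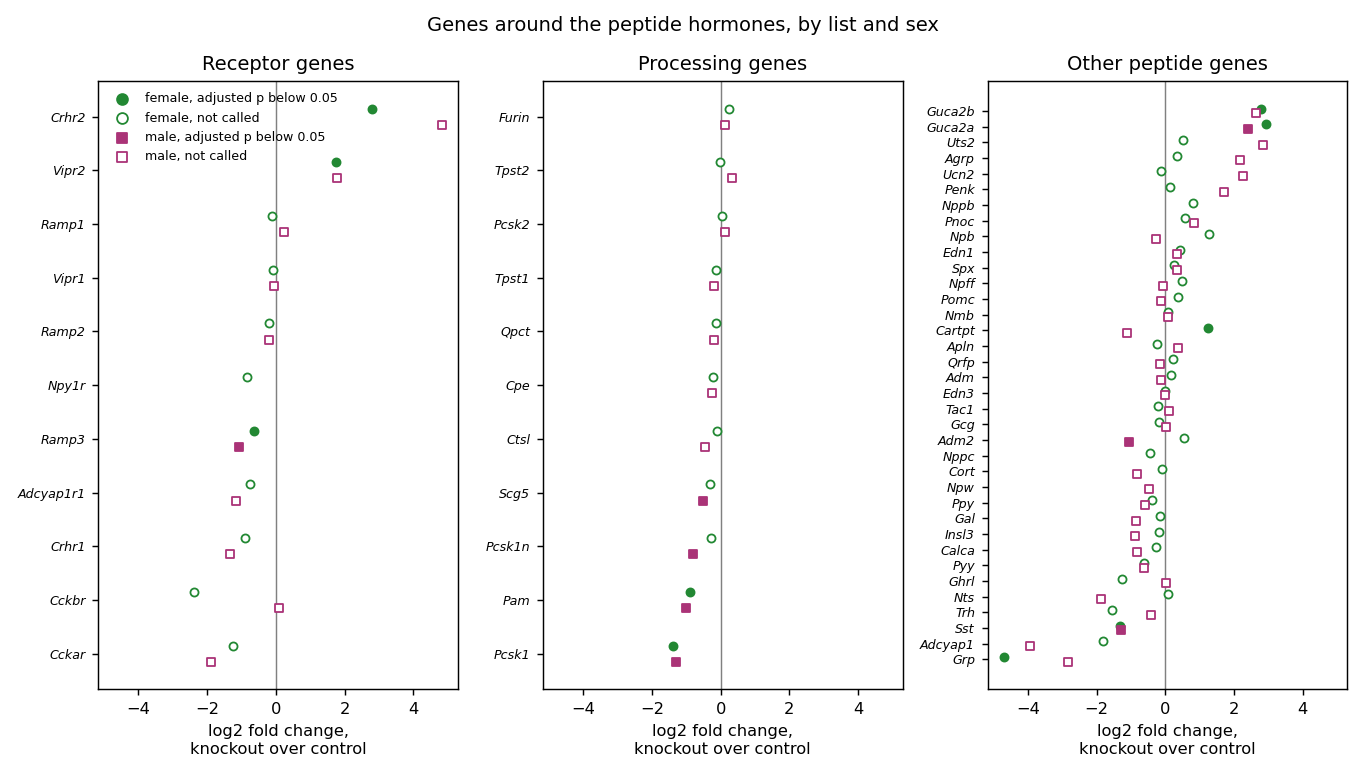
Log2 fold change, knockout over control (horizontal axes, log2 scale), of the tested receptor, processing and other peptide genes in females (circles) and males (squares), with filled symbols for a limma adjusted p below 0.05. Crhr2 and Vipr2 are at the top of the receptor panel, while Pcsk1 and Pam are at the bottom of the processing panel with both sexes filled.

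The other peptide hormone and neuropeptide genes, 35 tested of 52 in females and 34 in males, had medians of 0.06 and -0.13. In females 3 rose and 2 fell, and in males 1 rose and 2 fell, shares below the 20.6% and 13.2% called over all genes. Sst, the somatostatin of delta cells, was the one called in the same direction in both sexes without exception among the alternatives. It had 76189, 66425 and 77235 normalized counts in female controls and 28052, 33145 and 27011 in female knockouts, a fall by 1.32 (SE 0.11, limma adjusted p = 4.67e-04). In males it had 64537, 54885 and 84558 and then 21195, 27837 and 34764, a fall by 1.29 (SE 0.21, limma adjusted p = 0.00602). The summed share of reads from 8 delta cell markers, Sst and Crhr2 included, ranged in females from 0.187 to 0.215% (controls) and 0.0959 to 0.108% (knockouts), and in males from 0.154 to 0.225% and 0.0748 to 0.111%. Sst itself carried 79.8 to 93.5% of those reads. In each sex 3 of these 8 fell and 1 rose, which was Crhr2 in females and another marker in males. Over all tested genes 10.7% fell and 9.9% rose in females, and 7.09% and 6.08% in males.

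Grp, gastrin-releasing peptide, a neuropeptide of autonomic nerves, had 27, 15 and 59 reads in female controls and 1, 0 and 0 in female knockouts. The ratio of control to knockout reads, scaled for depth, was 101 with a 95% exact interval of 17.7 to 4020 that covers counting error only, and the gene was called lower (limma adjusted p = 0.00242). In males it had 75, 0 and 55 reads in controls and 0, 0 and 7 in knockouts and was not called (limma adjusted p = 0.371), but was called without male control 2 (limma adjusted p = 0.0344).

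Guca2a, which encodes the gut peptide guanylin, had 21.7, 8.42 and 19.0 normalized counts in female controls and 138, 133 and 103 in female knockouts, a rise of 2.94 (limma adjusted p = 0.00171). In males it rose by 2.42 (limma adjusted p = 0.0429), a call that was lost without any 1 of 5 libraries, all but male control 2 (adjusted p 0.0781 to 0.217). Its relative Guca2b, uroguanylin, rose by 2.79 in females (limma adjusted p = 0.0141, lost without female knockout 1 at 0.0579) and was at 2.65 in males (limma adjusted p = 0.223, 3.96 and called without male control 2 at 0.0242, and 1.58 without male control 1). Cartpt, a neuropeptide also found in islets, rose by 1.25 in females (limma adjusted p = 0.00685) and was at -1.12 in males (limma adjusted p = 0.218). The sex difference of 2.40 was not called (SE 0.65, limma adjusted p = 0.275). Adm2, an adrenomedullin relative, fell by 1.05 in males (limma adjusted p = 0.0374), a call lost without male control 3 or any 1 of the male knockouts (adjusted p 0.0567 to 0.141), and was at 0.54 in females (limma adjusted p = 0.148, called without female control 3 at 0.0312), with a sex difference of 1.61 (limma adjusted p = 0.147). Gcg, which encodes glucagon, was at -0.18 in females (limma adjusted p = 0.764) and 0.01 in males (limma adjusted p = 0.976).

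The genes whose levels varied most like each of the 7 within groups are given as a description, by Pearson's r over the 12 libraries of log2 levels minus the group mean, among 17323 genes. Libraries share depth and tissue makeup, and with this many genes high values of r occur for each. Ttc5 (r = 0.972) was first for Iapp, 1110013H19Rik (0.969) for Ucn3 and P3h1 (0.948) for Vip. Gm39090 (0.982) was first for Cck, Gm4651 (0.936) for Gast, Ddx19b (0.961) for Pdyn and Rab7 (0.922) for Npy. The second genes were Eif4ebp2 (0.964), Slco2b1 (0.951), Inpp5a (0.937), Gm18649 (0.980), Bhlhe22 (0.930), Bcl3 (0.932) and B230362B09Rik (0.919), in the same order of hormones. Without male control 2, only Ttc5, 1110013H19Rik and B230362B09Rik stayed among the top 2.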

How the data were processed

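Bulk RNA sequencing of mouse islets was analysed from 1 table per sex, with groups and replicate numbers taken from the labels. The submitters' processing notes name FastQC 0.11.9, Trim Galore 0.6.7 for trimming, STAR 2.7.3a with the GRCm39 build for alignment, and featureCounts. The strand setting and annotation release are not given in the sources used here. The signal values deposited by the authors were normalized counts, that is reads over a library's size factor, scaled within each sex, for genes with at least 10 reads in total. Whole reads were recovered from 100% of values within a tolerance of 0.001.

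Log2 of the value plus 1 was tested with limma 3.58.1 (trend and robust settings, R 4.3.3) over genes with a mean of at least 10, with Benjamini-Hochberg adjustment over all genes tested. Tables of the sexes were normalized separately, so comparisons between sexes used recovered reads scaled together. edgeR 4.0.16 called 3734 genes in females and 2336 in males on the recovered reads, and DESeq2 1.42.0 was a further alternative. The fits were tested on simulated data. Removal of repeated entries took 79 lines in females and 73 in males. The design foresaw normalized values, and limma was its main test.

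The 7 genes and the lists were chosen with earlier results of these data known. Named genes were the 7, Rnf20, list genes called in either sex, the 2 genes most alike each of the 7, and markers by counts. Marker calls of single neuronal and gut genes, and Vipr1, Pcsk2, Cpe, Calcr, Gcg, Ecel1 and Th, were named after their values were seen. Some marker genes are not reported here. Exon lengths came from GENCODE M21 and promoters from RefSeq (GRCm38.p6), with all 7 genes matched. Precision was set by 3 libraries per group, and intervals cover counting error only.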

Additional observations from a re-analysis of the deposited data

How the results depend on the processing

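Fold changes of the 7 genes, except female Pdyn, kept their sign in both sexes under edgeR, DESeq2, TMM scaling, pseudocounts of 0.5 and 4, no low value filter, a replicate block, an acinar covariate and each library left out; with the acinar covariate female Vip moved to -3.39 and female Gast to 2.45. Female Pdyn, at -0.07, turned to 0.095 with that covariate, 0.21 without female control 3 and 0.13 without female knockout 3. The covariate ended the female calls of Cartpt (1.40, adjusted p 0.0673), Grp (-4.07, 0.0632), Ramp3 (-0.74, 0.181) and Cdhr2 (1.04, 0.0717), and the male calls of Cdhr2 (1.45, 0.0555), Guca2a (2.36, 0.0703) and Adm2 (-1.03, 0.0551), with log2 fold changes first. Male Cdhr2 (0.0578) and Guca2a (0.0521) were also lost with edgeR, Guca2a without a filter (0.05001), and Guca2a (0.0661), Pcsk1n (0.0532) and Adm2 (0.0685) with the replicate block.

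The total of genes called in females was 1032 with the acinar covariate and 1839 to 3770 with 1 library left out, and in males 828 to 2307. The cause was not tested. Without 1 library the fits gave 0 to 66 genes for the sex difference and 0 to 26 between controls. The replicate block left 0 calls for the sex difference, and calls between controls were 3 with edgeR, pseudocount 4 or no filter.

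Same-numbered libraries of the 2 genotypes correlated at -0.04, -0.28 and -0.13 in females and 0.12, 0.01 and 0.15 in males. The highest correlations with another number were 0.18, 0.25 and 0.09 in females and 0.08, 0.01 and -0.08 in males. With 3 libraries per group these values cannot settle whether same-numbered libraries share more than a number. The paired fit (replicate block) called 3209 genes in females and 2062 in males.

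Receptors called lower in females were 3 with DESeq2, 2 with pseudocount 4 or the block, and 0 to 1 with a library left out. In males 1 was higher with edgeR, DESeq2, pseudocount 4 or the block (0 to 1 with a library left out), and 2 were lower with the block or the acinar covariate (0 to 1). Processing genes called higher in females were 1 with DESeq2 (0 to 1), and 2 to 4 were lower in males with a library left out. Other peptides called lower in females were 4 with edgeR or DESeq2, 1 with the acinar covariate and 2 to 3 with a library left out. In males 0 were higher with edgeR, no filter, the block or the acinar covariate and 2 with DESeq2 (0 to 2), and lower ones were 5 with DESeq2 and 1 with the block or the acinar covariate (1 to 5).

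The sex difference of Npy turned to 0.095 with edgeR and ranged from -0.57 to 0.36 with a library left out. That of Ucn3 ranged from -0.046 to 0.40, of Vip from -0.34 to 0.59 and of Gast from -0.22 to 0.72, and the control difference of Ucn3 from -0.18 to 0.26. Female Pcsk1n turned to 0.073 with the acinar covariate, and male Th ranged from -0.32 to 0.29 with a library left out. Marker counts under alternatives were computed after seeing the data: autonomic markers lower in males were 0 to 4, and gut markers higher were 1 in females with the acinar covariate, 1 in males with edgeR or the acinar covariate and 0 to 2 in males with a library left out. Low read counts limit the precision of Cck, Gast and Grp, and male control 2 that of male Cck and Crhr2.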
